A study of Mus musculus with 12 samples.

Results

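The 3 metallothionein genes Mt1, Mt2 and Mt3 and Mtf1, the gene of the metal-response transcription factor, were followed across the ileal and colonic mucosa of Slc39a8-IEC KO and control mice. They are 4 of the 53715 genes in the deposited table and were found by their Ensembl identifiers, all with a GENCODE M21 entry, and all 4 passed the filter on low counts. These genes were chosen with their values in these libraries already known, so their levels and differences are given here as a description and carry no test. RNA was sequenced from 12 libraries of 8-week-old male C57BL/6J mice, 3 per genotype and tissue. The labels give the control genotype as Slc39a8-fl/fl and the KO genotype as Slc39a8-fl/fl:Villin-Cre, so all groups carry the floxed allele by label and none received a treatment, while by the study's methods the control mice also included wild-type animals and Cre carriers. Villin drives Cre in the epithelium of the gut, and the libraries were made from whole mucosa. Transcripts of cells without Cre are therefore part of every value, and fewer cells of a type cannot be told apart from less RNA per cell.

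Metallothioneins are small proteins in which cysteines bind zinc, copper and cadmium. Mt1 and Mt2 are made in most tissues, in the gut mainly in epithelial cells, and rise with dietary zinc, while Mt3 is best known from the brain and Mt4 from stratified epithelia of skin and tongue. Mtf1 is a zinc finger protein that senses zinc and binds metal response elements, short DNA motifs in the promoters of Mt1 and Mt2. Slc39a8 (ZIP8), the gene deleted in the KO mice, imports manganese, zinc and other metals into cells.

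In GRCm38, Mt1 (ENSMUSG00000031765.8) lies at chr8:94179082-94180327, Mt2 (ENSMUSG00000031762.7) at chr8:94172664-94173568 and Mt3 (ENSMUSG00000031760.9) at chr8:94152607-94154146, all on the plus strand beside Mt4 at chr8:94137197-94139031. Mtf1 (ENSMUSG00000028890.13) lies on the plus strand at chr4:124802104-124849800. The coding sequences of the 3 expressed metallothioneins are shown to make visible how alike the genes are, with each cysteine codon in capitals. The expected counts of Mt1, Mt2 and Mt3 were whole in every library. They were read from the GENCODE M21 transcripts, 5′ to 3′.
Mt1: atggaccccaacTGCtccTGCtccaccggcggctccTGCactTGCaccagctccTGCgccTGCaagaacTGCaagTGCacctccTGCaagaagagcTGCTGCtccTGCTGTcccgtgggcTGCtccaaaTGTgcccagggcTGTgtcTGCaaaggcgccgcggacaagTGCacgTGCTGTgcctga
Mt2: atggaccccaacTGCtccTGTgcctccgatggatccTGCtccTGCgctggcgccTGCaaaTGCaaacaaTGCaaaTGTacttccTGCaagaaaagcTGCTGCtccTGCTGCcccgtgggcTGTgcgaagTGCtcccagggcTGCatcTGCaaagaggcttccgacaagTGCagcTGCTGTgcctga
Mt3: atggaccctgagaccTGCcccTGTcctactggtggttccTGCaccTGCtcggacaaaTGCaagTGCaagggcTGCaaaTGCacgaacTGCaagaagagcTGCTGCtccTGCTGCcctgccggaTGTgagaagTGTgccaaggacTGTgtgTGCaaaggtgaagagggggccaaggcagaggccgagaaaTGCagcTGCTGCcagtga
Each sequence holds 20 cysteine codons, of 61 codons in Mt1 and Mt2 and 68 in Mt3, and all 20 stand at the same aligned places. Mt1 and Mt2 were identical at 79.6% of the aligned coding bases, Mt1 and Mt3 at 72.6% and Mt2 and Mt3 at 75.3%. No stretch of 75 bases was shared between members, so reads of that length with no mismatch belong to 1 of them. Of the 529 such stretches in the exons of Mt2, 160 (30.2%) lie opposite the antisense gene Gm45774, which held 0 to 38 counts per library. Of those of Mtf1, 7.27% lie opposite 1110065P20Rik. The sources used here do not say whether the counting used strand, and without it such reads cannot be assigned to either gene.

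The promoters of Mt1 and Mt2 are shown because both genes are textbook targets of Mtf1 and yet differed in their KO values in these libraries. Each stretch runs from 250 bases before to 30 after the RefSeq transcript start on the plus strand of GRCm38.p6, at chr8:94178839-94179118 for Mt1 and chr8:94172368-94172647 for Mt2. Capitals mark matches to the core of the metal response element, searched as TGCACNC or TGCGCNC on both strands, so that a match on the minus strand reads reversed and complemented.
Mt1: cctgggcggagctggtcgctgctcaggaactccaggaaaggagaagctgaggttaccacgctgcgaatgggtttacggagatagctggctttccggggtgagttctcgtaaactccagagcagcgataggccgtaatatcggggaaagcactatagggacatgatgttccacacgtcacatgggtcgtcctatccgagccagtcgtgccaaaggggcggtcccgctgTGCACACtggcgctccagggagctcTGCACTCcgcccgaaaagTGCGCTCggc
Mt2: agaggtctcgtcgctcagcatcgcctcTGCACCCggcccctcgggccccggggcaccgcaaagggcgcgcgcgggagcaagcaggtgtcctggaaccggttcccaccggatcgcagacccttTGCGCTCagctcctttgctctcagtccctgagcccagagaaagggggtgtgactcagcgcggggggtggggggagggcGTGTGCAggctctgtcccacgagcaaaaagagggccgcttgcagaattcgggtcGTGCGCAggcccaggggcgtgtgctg
In windows that reach to 50 bases after the start, Mt1 held 3 matches, Mt2 held 4, Mt3 and Mt4 held 1 each and Mtf1 held none, as the map of matches shows. Of the 32851 mouse promoter windows of the same length in RefSeq, 25.7% held at least 1 match and 1.97% held 3 or more. The RefSeq start of Mt2 lies upstream of its GENCODE start. The Mt2 window also held 1 match to TGACNNNGC, the core of the antioxidant response element, which 12.4% of all windows hold, and the windows of the other members held none. Sequence outside the windows was not searched, and the coding sequence of Mt1 starts only at base 230 of its transcript. Matches to either motif beyond the window of a gene are therefore not counted here.

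**Figure D1:**
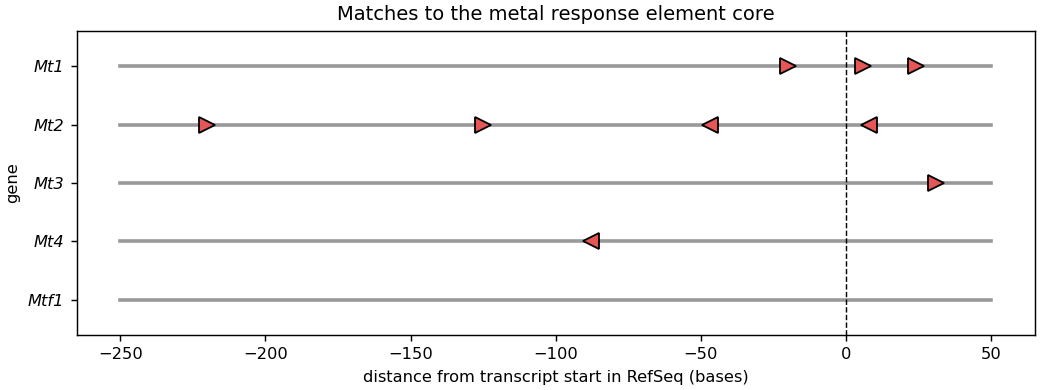
Positions of matches to the metal response element core (TGCACNC or TGCGCNC) in the RefSeq promoter windows of the 4 metallothionein genes and Mtf1, in bases from the transcript start (dashed line). Triangles mark the centre of a match and point right on the plus strand and left on the minus strand. Mt1 holds 3 matches close to its start, Mt2 holds 4 spread over the window, Mt3 and Mt4 hold 1 each and Mtf1 none.

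The libraries held 16749138 to 27903083 expected counts. Slc39a8 was lower in the KO mice of both tissues, at 4.35, 2.62 and 2.8 CPM (counts scaled to library size with TMM factors) against 8.39, 5.22 and 6.59 in ileum, and at 7.35, 11.5 and 7.93 against 20.8, 20.5 and 20.1 in colon, with no overlap between genotypes. No genotype comparison called a gene at an adjusted p under 0.1 with edgeR's quasi-likelihood test, Slc39a8 included (edgeR adjusted p = 0.382 over both tissues), whereas DESeq2 and limma-voom called Slc39a8 lower in KO mice over both tissues. The ileum markers were called lower in colon in 4 of 4 genes. The colon marker Car1 reached 2630 CPM in ileal KO replicate 2, other ileal libraries having 3.4 to 144 CPM and colonic libraries 14900 to 27100 CPM, while the marker Hoxb13 did not pass the filter. Summed over 6 smooth muscle markers, ileal control replicate 3 and ileal KO replicate 1 were at 34.2 and 20.2 CPM and the other ileal libraries at 1810 to 2640 CPM. Ileal values are therefore also given without these 2 libraries, a division made after their values were seen.

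Mt1 was the most abundant member in every group per length of exon. In the ileum of control mice it was at 168, 150 and 77.9 CPM in replicates 1, 2 and 3, and in the ileum of KO mice at 73.2, 719 and 646 CPM. Replicates 2 and 3 of the KO mice stood above every other library of the study, and replicate 1 below every other, so the ileal groups overlapped. In colon, Mt1 was at 276, 321 and 211 CPM in control mice and 359, 425 and 340 CPM in KO mice, and the groups did not overlap. The means were 132 ± 47.7 and 479 ± 354 CPM (SD, n = 3) in ileum and 269 ± 55.2 and 375 ± 44.3 CPM (SD, n = 3) in colon. On the log2 scale KO exceeded control by 1.86 in ileum (SE 0.61), by 0.48 in colon (SE 0.59) and by 1.17 over both tissues (SE 0.46). All 12 libraries share the same estimate of the spread per gene, so these SE do not measure the scatter within a tissue alone. The difference between the tissues in this effect was -1.39 (SE 0.84, colon minus ileum). Ordered by mean, ileal control stood lowest and ileal KO highest, with the colonic groups between them, but the ileal KO libraries spanned the range of all other groups.

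The lowest Mt1 of each ileal group stood in the library with few muscle transcripts. These 2 libraries also differed in other markers, with Paneth cell markers at 13500 and 10900 CPM in sum against 4440 to 7080 CPM in the other ileal libraries, and macrophage and stroma markers at 31.0 and 26.3 CPM against 63.8 to 79.1 CPM. Within the libraries of few muscle transcripts, KO was at 0.939 times control for Mt1 (73.2 against 77.9 CPM, 1 library each), and among the other ileal libraries at 4.29 times (682 against 159 CPM, means of 2 libraries each). The fitted log2 difference in ileum was 2.37 (SE 0.29) without KO replicate 1 and 2.09 (SE 0.21) without both libraries. Slc39a8 in the same split was at 0.661 and 0.398 times control. KO replicate 2, with the highest Mt1, was also the ileal library with the Car1 value of 2630 CPM, whereas KO replicate 3 had 646 CPM of Mt1 at a Car1 level of 27.5 CPM. The epithelial markers Epcam, Cdh1, Krt8, Vil1 and Cldn7 summed to 13300 to 15000 CPM in ileal control and 14400 to 16900 CPM in ileal KO libraries. The part of muscle, Paneth cell, macrophage, Car1 or epithelial transcripts in the Mt1 values was not tested. By the labels only KO mice carry the Villin-Cre transgene, whereas the study's methods also place Cre carriers among its controls. The transgene sequence is not in the sources used here. Reads of any Mt1 sequence in a transgene could not be told apart from those of the gene itself.

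**Figure D2:**
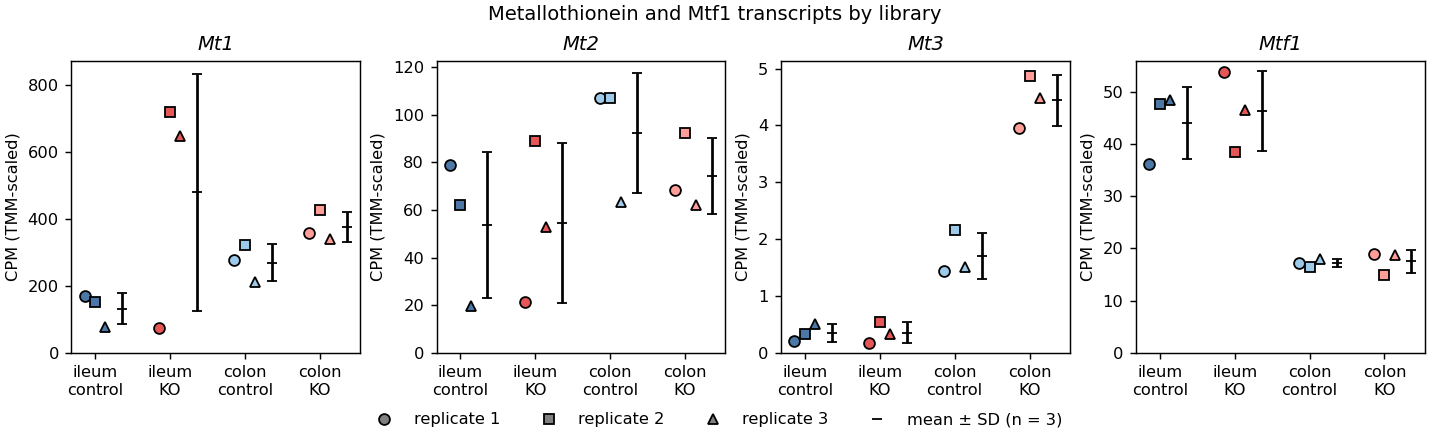
TMM-scaled CPM (linear axes from 0) of Mt1, Mt2, Mt3 and Mtf1 in each of the 12 libraries, with the marker shape giving the replicate number and the bars the mean ± SD of 3 libraries. Mt1 in ileal KO mice splits into 1 library at 73.2 CPM and 2 libraries at 646 and 719 CPM, Mt3 is highest in colonic KO mice, and Mtf1 is lower in colon than in ileum in both genotypes.

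Mt2, the gene next to Mt1, did not show the KO values of Mt1. In ileum it was at 79.1, 61.9 and 19.5 CPM in control mice and 21.5, 89.1 and 52.8 CPM in KO mice. In colon it was at 107, 107 and 63.2 CPM in control mice and 68.4, 92.2 and 62.3 CPM in KO mice. The genotypes overlapped in both tissues, with log2 differences of 0.03 in ileum (SE 0.52) and -0.31 in colon (SE 0.51). The lowest ileal library of each genotype was again the one with few muscle transcripts, and KO was at 1.1 times control within that pair and 1.01 times among the other ileal libraries. By mean the order was ileal control (53.5 ± 30.7), ileal KO (54.5 ± 33.8), colonic KO (74.3 ± 15.8) and colonic control (92.4 ± 25.3 CPM, SD, n = 3), and each group overlapped with its neighbour.

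The ratio of Mt1 to Mt2 counts within a library does not depend on the scaling between libraries. It was 2.13, 2.42 and 4.0 in ileal control mice and 3.4, 8.07 and 12.2 in ileal KO mice. In colon it was 2.58, 3.0 and 3.34 in control mice and 5.26, 4.6 and 5.45 in KO mice, with no overlap between the genotypes. The mean log2 ratio was higher in KO by 0.78 in colon (SE 0.13) and by 1.34 in ileum (SE 0.61). The ratio was formed with these values already known and was not compared with ratios of other gene pairs, so it carries no test. Without the 2 ileal libraries of few muscle transcripts the ileal difference was 2.12, and within that pair the KO ratio was 0.851 times the control ratio. Mt1 and Mt2 were correlated at r = 0.714 in log2 CPM over the 12 libraries, 0.73 in the 6 ileal and 0.208 in the 6 colonic libraries. These are descriptions over libraries that share tissue and genotype.

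**Figure D3:**
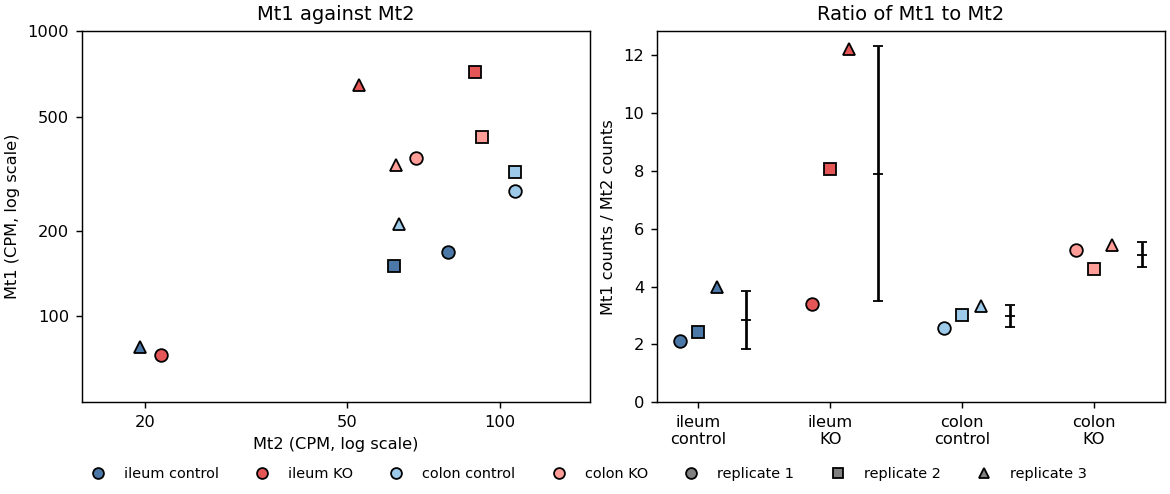
Left, Mt1 against Mt2 in CPM on log axes for the 12 libraries, coloured by group. Right, the ratio of Mt1 to Mt2 counts in each library on a linear axis, with bars for the mean ± SD of 3 libraries. In colon the ratio is 2.58 to 3.34 for control and 4.6 to 5.45 for KO mice, while the ileal KO libraries range from 3.4 to 12.2.

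Mt3 was a colonic transcript at low level. In ileum it held 3 to 12 counts per library in control mice (0.2, 0.333 and 0.51 CPM) and 3 to 14 in KO mice (0.179, 0.547 and 0.332 CPM), too few to show a difference of moderate size. In colon it was at 1.43, 2.16 and 1.51 CPM in control mice (28 to 45 counts) and at 3.96, 4.87 and 4.48 CPM in KO mice (84 to 108 counts). The colonic KO libraries stood above all others and did not overlap with the control libraries. KO exceeded control by 1.38 on the log2 scale in colon (SE 0.38), with means of 1.7 ± 0.399 CPM in control and 4.44 ± 0.457 CPM in KO mice (SD, n = 3), and by 0.02 in ileum (SE 0.46). The latter value rested on 2 libraries and was 0.69 without ileal control replicate 3 and ileal KO replicate 1. The difference between the tissues was 1.36 (SE 0.60) and 0.70 without those libraries.

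Because Mt3 is known from neurons and glia, the 8 enteric neuron and glia markers are set beside it. Their summed level was 16.3, 26.0 and 37.8 CPM in the colon of control mice and 28.6, 32.8 and 36.4 CPM in colonic KO mice, so these groups overlapped where those of Mt3 did not. All 8 markers had a positive log2 difference in colon (median 0.29, against 0.005 over all genes), none was called by edgeR, DESeq2 or limma-voom, and 0 had an unadjusted edgeR p under 0.05. In ileum the sum was 6.5 to 20.6 CPM in control and 8.35 to 14.6 CPM in KO libraries. Between the tissues in control mice, edgeR called 0 of the 8 markers, against 35.9% of all genes. There, 1 marker was at an unadjusted edgeR p under 0.05, DESeq2 called 2 and limma-voom called 4. In KO mice edgeR called 6 higher in colon, against 17.1% of all genes, among them the glial markers Gfap and Sox10. The part of nerve tissue in the Mt3 values was not tested.

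Mt4 did not pass the filter, with 0 to 9 counts in any library. The other genes that start within 100000 bases of Mt1 and passed the filter were Bbs2, Nup93 and Gm45774. Bbs2, a ciliary gene, and Nup93, a nuclear pore gene, overlapped between genotypes in both tissues, with log2 differences from -0.11 to 0.22. Gm45774, antisense to Mt2, was at 4 to 10 counts in ileal control and 0 to 1 count in ileal KO libraries, and at 11 to 38 and 13 to 29 counts in colon.

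Mtf1 itself overlapped between the genotypes and was lower in colon than in ileum. It was at 36.1, 47.7 and 48.4 CPM in ileal control and 53.8, 38.5 and 46.6 CPM in ileal KO mice. In colon it was at 17.2, 16.4 and 18.0 CPM in control and 18.9, 14.9 and 18.7 CPM in KO mice. Every colonic library lay below every ileal library. The log2 difference between genotypes was 0.07 in ileum (SE 0.16) and 0.03 in colon (SE 0.16), and that between colon and ileum was -1.36 in control and -1.40 in KO mice (SE 0.17 and 0.17). Mtf1 was correlated with Mt2 at r = -0.666 over the 12 libraries and at -0.777 after the tissue means were subtracted. With Mt3 the values were -0.901 and -0.104, and with Mt1 -0.414 and -0.476, as a description of libraries that share tissue and genotype. The 2 ileal libraries of few muscle transcripts held the lowest Mt2 and the highest Mtf1 of their groups. Their part in the correlation of Mtf1 with Mt2, at -0.806 in the 6 ileal and -0.705 in the 6 colonic libraries, was not tested.

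Between the tissues, Mt3 was higher and Mtf1 lower in colon in both genotypes, while Mt1 and Mt2 were not called. Mt3 exceeded ileum by 2.23 in control mice (SE 0.43) and 3.59 in KO mice (SE 0.43) on the log2 scale. Mt1 was 1.03 higher in colon in control mice (SE 0.60), where the tissues did not overlap, and at -0.36 in KO mice (SE 0.59), where they did. The sign of the latter value was the opposite with limma-voom (0.22). Mt2 was at 0.79 (SE 0.52) and 0.44 (SE 0.51) in the 2 genotypes, with overlap in both. At an adjusted p under 0.1, 2 of 4 members were called in each genotype, against 35.9% of all 16558 genes in control mice (16.2% higher and 19.6% lower in colon) and 37.1% in KO mice (17.1% higher and 20% lower). The tissues did not overlap for Mt1, Mt3 and Mtf1 in control mice, against 40.7% of all genes (20.3% higher and 20.4% lower in colon), and for Mt3 and Mtf1 in KO mice, against 50.4% (25.5% higher and 24.9% lower). Without ileal KO replicate 1 edgeR also called Mt1 in each genotype, at 1.03 in control and -0.87 in KO mice. That library held the lowest Mt1 of all, so leaving it out selects on the value itself and nothing is read from these calls. The epithelial markers were lower in colon in 5 of 5 genes, at 6930 to 7930 CPM in sum against 13300 to 16900 CPM in ileum. Their part in the tissue difference of Mtf1 was not tested.

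Between the genotypes, 0 of 4 members were called in ileum, in colon, over both tissues or for the difference between the tissues, as were 0% of all genes in edgeR. The counts of all genes at an unadjusted edgeR p under 0.05 were 252, 385, 641 and 169 in this order. These are 1.52%, 2.33%, 3.87% and 1.02% of the 16558 genes tested. In the same order DESeq2 called 2, 0, 4 and 1 genes and limma-voom 1, 0, 1 and 0, none of them a member. Without ileal KO replicate 1, edgeR called 1 gene in ileum, which was Mt1, but leaving out the library with the lowest Mt1 of all selects on the value itself, and nothing is read from that call. The genotypes did not overlap for 0 of 4 members in ileum, against 3.7% of all genes (2.13% higher and 1.57% lower in KO mice), and for Mt1 and Mt3 in colon, against 12.8% of all genes (6.98% higher and 5.85% lower). These shares are given beside the members only as background, since the members were chosen on these contrasts.

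**Figure D4:**
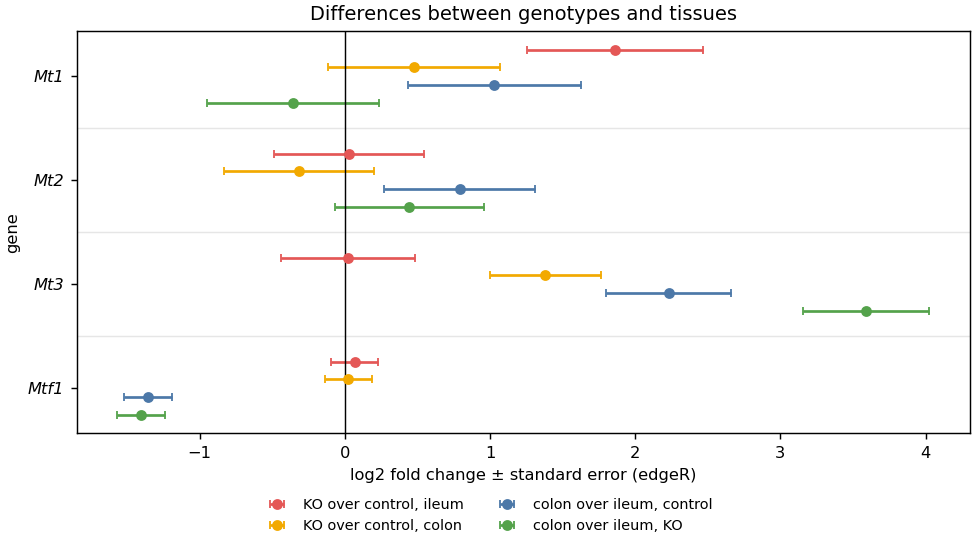
Fitted log2 fold changes ± SE (edgeR, 12 libraries) of the 4 members for KO over control in each tissue and colon over ileum in each genotype. Mt1 lies at 1.86 for KO over control in ileum, Mt3 at 1.38 in colon, and Mtf1 at -1.36 and -1.40 for colon over ileum.

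Compared per length, in CPM per kb of all annotated exons, the members differed widely in level. In ileal control mice Mt1 was at 106 ± 38.3, Mt2 at 91.0 ± 52.2, Mtf1 at 4.95 ± 0.773 and Mt3 at 0.326 ± 0.146 CPM per kb (SD, n = 3). In colonic KO mice they were at 301 ± 35.6, 126 ± 26.9, 1.96 ± 0.251 and 4.16 ± 0.429 CPM per kb (SD, n = 3). Mt3 thus stood below Mtf1 in ileum and above it in the colon of KO mice. In colonic control mice Mt3 was at 1.59 and Mtf1 at 1.93 CPM per kb of all exons. With their transcripts of 536 and 7631 bases they were at 3.17 and 2.25 CPM per kb there, so that order depended on the length used. Mt1 ranked between the 96.8 and 99.2 percentile of the genes tested in the 4 groups, and Mt3 reached the 60.4 percentile in the colon of KO mice. The union of Mt1 exons, 1246 bases, includes transcripts that keep introns. With its 549-base transcript, Mt1 was at 240 and 682 CPM per kb in these groups, and Mt2 with its 511-base transcript at 105 and 145 CPM per kb.

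Of 10 other genes reported as targets of Mtf1, none was called between genotypes, nor was Mt1. In ileum and in colon edgeR called 0 of 10 between genotypes, as did DESeq2 and limma-voom, with 0 and 1 at an unadjusted p under 0.05, and the median log2 difference was -0.02 and -0.05, against -0.002 and 0.005 over all genes. Slc30a1 (ZnT1), the zinc exporter of the plasma membrane that rises with zinc as Mt1 does, was at 139 and 140 CPM in ileal control and KO mice (means, n = 3) and at 75.8 and 93.6 CPM in colon, a log2 difference of 0.01 (SE 0.31) and 0.31 (SE 0.31). The gene at an unadjusted p under 0.05 was Slc30a2 (ZnT2), a vesicular zinc transporter of secretory cells, at 0.693 CPM in colonic control and 0.358 CPM in colonic KO mice (log2 difference -0.95, SE 0.35, edgeR adjusted p = 1). Gclc, the catalytic subunit of glutathione synthesis, was at 62.2 and 78.4 CPM in ileum.

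Between the tissues in control mice, edgeR called 3 of the 10 targets higher in colon, 3 lower and 4 not, against 35.9% of all genes. Slc40a1 (ferroportin), the iron exporter, was higher by 2.0 on the log2 scale (SE 0.44, edgeR adjusted p = 0.00549), Ndrg1, a stress-induced gene, by 2.40 (SE 0.24, edgeR adjusted p = 2.65e-05) and Gclc by 1.12 (SE 0.37, edgeR adjusted p = 0.0415). Slc30a1 was lower by 0.87 (log2 difference -0.87, SE 0.31, edgeR adjusted p = 0.057), Selenoh at -0.86 (SE 0.22, edgeR adjusted p = 0.0136) and Slc30a2 at -6.13 (SE 0.29, edgeR adjusted p = 1.64e-07), from 49.0 to 0.693 CPM. In KO mice Slc40a1 and Ndrg1 were called higher and Selenoh and Slc30a2 lower, against 37.1% of all genes. Without the 2 ileal libraries of few muscle transcripts the calls were 4 higher and 3 lower in control mice, where 42% of all genes were called, and 5 higher and 3 lower in KO mice, where 43.2% were called. Slc39a10, Csrp1, Selenow and Pgf were not called in either genotype with all libraries.

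**Figure D5:**
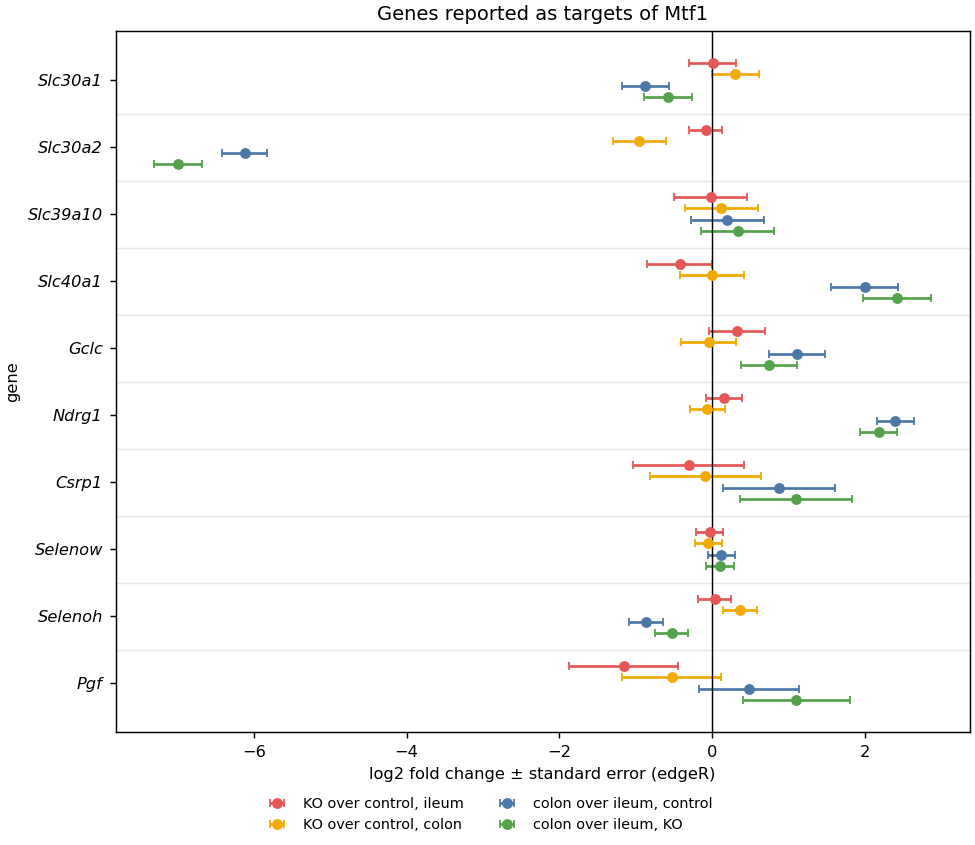
Fitted log2 fold changes ± SE (edgeR, 12 libraries) of 10 genes reported as targets of Mtf1, for KO over control in each tissue and colon over ileum in each genotype. The genotype differences lie near 0 for most genes, and Slc30a2 is lower in colon by -6.13 in control mice while Slc40a1 and Ndrg1 are higher by 2.0 and 2.40.

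Other genes of metal handling differed between the tissues, and Slc39a8 was the one called between genotypes by some of the tools. Of 12 zinc and manganese transporters, Slc39a8 among them, edgeR called 0 between genotypes in either tissue, with Slc39a8 in ileum and Slc39a8 and Slc30a2 in colon at an unadjusted p under 0.05 and none called by DESeq2 or limma-voom. Over both tissues Slc39a8 was the 1 transporter called, by DESeq2, by limma-voom and by edgeR without the 2 ileal libraries of few muscle transcripts (0.0296% of all genes called), and edgeR with all libraries called 0. Between the tissues, 2 were higher and 6 lower in colon in control mice, against 35.9% of all genes, and 2 higher and 4 lower in KO mice, against 37.1%, where Slc30a1 and Slc30a6 were not called. In control mice the zinc importer Slc39a4 fell from 407 to 209 CPM (log2 difference -0.97, SE 0.15, edgeR adjusted p = 0.000738), its relative Slc39a5 from 156 to 59.2 CPM (log2 difference -1.39, SE 0.15, edgeR adjusted p = 3.46e-05), and the manganese exporter Slc30a10 rose from 43.3 to 233 CPM (log2 difference 2.43, SE 0.31, edgeR adjusted p = 0.000149). Of 8 copper genes, in control mice 2 were higher in colon (Ccs and Sod1, copper chaperone and copper-zinc superoxide dismutase) and 4 lower (Slc31a1, Atp7a, Atp7b and Atox1, which import, export and carry copper), against 35.9% of all genes. In KO mice the same 4 were lower and 0 higher, against 37.1%, with Ccs and Sod1 not called (edgeR adjusted p = 0.258 and 0.233). Between genotypes 0 were called in either tissue by edgeR, DESeq2 or limma-voom and 1, Atox1 in colon, was at an unadjusted p under 0.05.

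Mt1 and Mt2 are also known to rise with glucocorticoids, oxidative stress and interleukin-6, and lists of these responses are set beside them. Of 10 glucocorticoid-responsive genes, 7 had a positive log2 difference between genotypes in colon (median 0.44) and 8 in ileum (median 0.16), and 0 were called by edgeR, DESeq2 or limma-voom in either tissue, with 1 (Ddit4 in colon) at an unadjusted p under 0.05. Over both tissues edgeR called 0, with 2 (Tsc22d3 and Ddit4) at an unadjusted p under 0.05. Without the 2 ileal libraries of few muscle transcripts edgeR again called 0 over both tissues, while DESeq2 called 4 of the 9 with an adjusted p higher in KO mice (Ddit4, Per1, Tsc22d3 and Hsd11b2), against 1.71% of all genes. Fkbp5 was at 194 ± 12.1 and 239 ± 29.4 CPM in colonic control and KO mice (SD, n = 3). In ileum it was at 49.4 ± 45.0 and 36.4 ± 8.37 CPM (SD, n = 3), with the ileal control libraries spread from 17.2 to 101 CPM. Of 8 targets of Nrf2, the factor of the oxidative stress response, 8 had a positive difference in ileum (median 0.18) and 6 in colon (median 0.06), with 0 called by any of the 3 tools and 0 at an unadjusted p under 0.05. Of 6 measured genes of the acute phase and interleukin-6 response, 5 had a negative difference in ileum (median -0.82) and 6 in colon (median -0.44), with 0 called by the 3 tools and 0 at an unadjusted p under 0.05. Saa1, an acute phase protein, was at 1040 and 453 CPM in ileal control and KO mice (SE 1.38 on a log2 difference of -1.20).

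By Pearson correlation of log2 CPM over the 12 libraries, the genes most like Mt1 were Triap1 (r = 0.866), Cp (0.862), Edn2 (0.847), Dnm3os (0.846) and Cd177 (0.831). Cp encodes ceruloplasmin, a copper-carrying ferroxidase, and Edn2 a peptide of the endothelin family. Triap1, a mitochondrial lipid transfer protein, also stood among the 5 most alike after the tissue means were subtracted (r = 0.899) and by Spearman correlation (0.853). It was at 23.8, 25.7 and 19.9 CPM in ileal control and 20.6, 28.8 and 27.8 CPM in ileal KO mice, and at 28.3, 27.5 and 26.2 CPM and 31.1, 32.4 and 28.2 CPM in colon, a far narrower range than that of Mt1. The genes most like Mtf1 were Copg1 (r = 0.993), Bcr (0.991), Epb41l3 (0.99), Aldh9a1 (0.989) and Cdc42se2 (0.989). None of these 5 was among the 5 most like Mtf1 after the tissue means were subtracted or by Spearman correlation.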

How the data were processed

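The authors deposited 1 table of expected counts per gene and library, estimates of reads that need not be whole and are not normalized (93.7% were whole). The submitters' processing notes name STAR and mm10. The study's methods also name UMI-tools for removing duplicates and FeatureCounts for counting, and which step left values that are not whole is not stated. The 92 spike-in rows held no counts and were left out. Expected counts were rounded, and edgeR 4.0.16 in R 4.3.3 was run on the 16558 genes kept by filterByExpr, with TMM factors and glmQLFTest. Genotype over both tissues had tissue as an additive term, and the other contrasts came from a model of the 4 groups. P-values were adjusted over all genes by the Benjamini-Hochberg method, with a threshold of 0.1. Alternatives were DESeq2 1.42.0, limma-voom (limma 3.58.1), other scalings, filters and sample sets. The steps were tested on simulated data. Log2 CPM used a prior count of 2.

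The members and lists were chosen with earlier results of these data known. Groups came from the sample labels, 3 libraries each from separate mice, and whether ileum and colon came from the same mice is not stated. Of 53715 gene identifiers, 53620 had a symbol. Genes named are the members, Mt4, Slc39a8, genes starting within 100000 bases of Mt1, the genes on the lists and the 5 most like Mt1 and Mtf1. Depth limits the values of Mt3 in ileum and of Slc30a2 in colon. Protein sequences were not used here, and some genes are not reported here. Figures were drawn with matplotlib 3.10.9.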

Additional observations from a re-analysis of the deposited data

How the results depend on the processing

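Of 591 refitted log2 differences of the 4 members, 566 moved by less than 1 SD between replicates, and no called value changed sign. Mt3 and Mtf1 were called between the tissues, in both genotypes, under every alternative that gave them a value. These refits use the libraries on which the members were chosen, so they describe the processing only and carry no test. Between genotypes, DESeq2 called 4 genes over both tissues, 2 in ileum and 1 for the difference between the tissues, limma-voom called 1 over both tissues and 1 in ileum, and a fit of the colonic libraries alone called 1. With 1 library left out, edgeR called 0 to 1 genes over both tissues (1 without ileal control replicate 3 and 1 without ileal KO replicate 1) and 0 to 1 in ileum, members 0 to 1 (Mt1, without ileal KO replicate 1). Without both libraries of few muscle transcripts, an alternative chosen after seeing the data, edgeR called 5 genes over both tissues and 3 in ileum, 1 of them Mt1. On the same 10 libraries DESeq2 called 161 genes over both tissues (1.71% of all genes), 26 in ileum, 23 in colon and 3 for the difference. Each held 1 member (Mt1, Mt1, Mt3 and Mt1). These calls of Mt1, by edgeR and by DESeq2, were made when ileal KO replicate 1, the library with the lowest Mt1, was left out. Nothing is read from them or from the call of Mt3 on the same chosen libraries, and the cause was not tested. Mt1 in ileum ranged from 1.35 (limma-voom) to 2.10 over the settings and from 1.45 to 2.37 with 1 library left out. Scaling by library size alone moved the median of all genes to 0.24 and 0.29 between the tissues and to 0.11 between genotypes in colon, and Mtf1 to -1.15 and -1.13. Whether replicate numbers pair ileum and colon of the same mouse was not settled. Of 18 same-numbered pairs, 5 had deviations correlated above 0.1, but pairs across genotypes cannot be the same mouse. Ileal and colonic libraries of the same number were at -0.053, 0.16 and -0.08 in control mice. In KO mice they were at 0.19, 0.051 and 0.25, too few pairs to decide. With a replicate block edgeR called 0 genes in each genotype comparison and 5333 and 5558 genes between the tissues, with the same 2 members.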
